A study of Rattus norvegicus with 12 samples.

Results

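The Dlk1-Dio3 domain is an imprinted region of rat chromosome 6 in which the protein-coding genes Dlk1, Rtl1 and Dio3 are expressed from the paternal copy and long non-coding RNAs, Meg3 among them, from the maternal copy. A large group of miRNAs is processed from the maternal transcripts, and these miRNAs are best known from brain, embryo and placenta. A miRNA acts mainly through its seed, bases 2 to 8, which pairs with sites in target mRNAs. The miRNAs were chosen by position: every miRNA of the array that is not a passenger strand (a name ending in *) and whose first listed probe position lies on chromosome 6 of the rn4 genome between 132 and 136 Mb. This gave 53 of the 388 miRNAs. Of these, 49 lie between Dlk1 and Dio3, and they are called cluster miRNAs below. The other 4, both arms of miR-342 and of miR-345, lie before Dlk1 and so outside the imprinted interval: the gap from miR-345-3p to miR-770, the first cluster miRNA, is 963 kb. In RefSeq's GRCr8 annotation both arms of miR-342 lie within the gene Evl.

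Serum was taken on day 21 postpartum, and whey, the filtered fluid left after fat, cells and casein are removed from milk, was taken on days 2 (colostrum), 9 and 16. All samples came from the same 3 lactating F344/N rats, with no other treatment named in the labels, which give no age. Before each milking the dams were kept from their litters, given oxytocin and lightly anesthetized. Each of the 12 samples had its own array, loaded with 70 ng of total RNA, so a signal is per mass of RNA and not per volume of fluid. The comparisons address whether this imprinted group appears in milk, changes as lactation proceeds, and differs between whey and serum of the same animals.

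The cluster miRNAs fall into 4 stretches on rn4, all on chromosome 6. The first, at Meg3 and just after it (134141384 to 134177361), holds miR-770, miR-673, miR-493, miR-337, miR-540 and miR-665. The second, antisense to Rtl1 (134182334 to 134187013), holds miR-431, miR-433, miR-127, miR-434 and miR-136, and miRNAs of this kind cut the Rtl1 mRNA in mouse. The third, in the region of the non-coding RNA Rian (134203582 to 134210263), holds miR-341 and miR-370. The last, from miR-379 to miR-410 (134388219 to 134425147), packs 36 miRNAs into 36.9 kb: miR-379, miR-411, miR-299, miR-380, miR-323, miR-758, miR-329, miR-494, miR-666, miR-543, miR-495, miR-667, miR-376c, miR-376b-5p, miR-376b-3p, miR-376a, miR-300-5p, miR-300-3p, miR-381, miR-487b, miR-539, miR-544, miR-382, miR-134, miR-668, miR-485, miR-154, miR-496, miR-377, miR-541, miR-409-5p, miR-409-3p, miR-412, miR-369-5p, miR-369-3p and miR-410. The whole run from miR-770 to miR-410 spans 284 kb.

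The sequences below are those of the 10 miRNAs that were detected on at least 1 array, with the seed in capitals. They are the mature sequences of RefSeq (GRCr8), found by matching the array's probes to them, which succeeded for 51 of the 53 miRNAs and not for miR-136 and miR-381. The first 7 are cluster miRNAs in their order along the chromosome, and the last 3 lie before Dlk1.
miR-434: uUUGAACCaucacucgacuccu
miR-341: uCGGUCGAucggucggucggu
miR-370: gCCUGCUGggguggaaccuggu
miR-494: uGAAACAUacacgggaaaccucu
miR-539: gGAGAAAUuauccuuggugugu
miR-134: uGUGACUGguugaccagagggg
miR-409-3p: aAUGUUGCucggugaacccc
miR-342-3p: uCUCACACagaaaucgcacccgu
miR-345-5p: uGCUGACCccuaguccagugc
miR-345-3p: cCCUGAACuaggggucuggaga
No 2 of the 47 matched cluster miRNAs share a seed. miR-341 is built largely from a repeated unit: GGUC occurs 3 times in its 21 bases. The share of G and C had a median of 55.0% (40.9% to 68.2%) in the 7 detected cluster miRNAs and of 47.7% (23.8% to 70.0%) in the 40 undetected ones that were matched.

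Few of the cluster miRNAs were found in either fluid. Detection in a fluid or on a day means a call by the scanner software on 1 or more of its 3 arrays. Serum gave 7 of the 49 cluster miRNAs (14.3%), against 5 (10.2%) in whey of any day. By day, whey gave 5 on day 2, 2 on day 9 and 1 on day 16. On the whole array, serum gave 168 of 388 miRNAs (43.3%), against 161 (41.5%) in whey, and by day whey gave 128, 144 and 143. So the number of cluster miRNAs was lower on the later whey days while the number of all detected miRNAs was not; these are counts, with no test. Counting all 53 miRNAs by position, 10 were detected in serum, against 7 in whey.

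**Figure D1:**
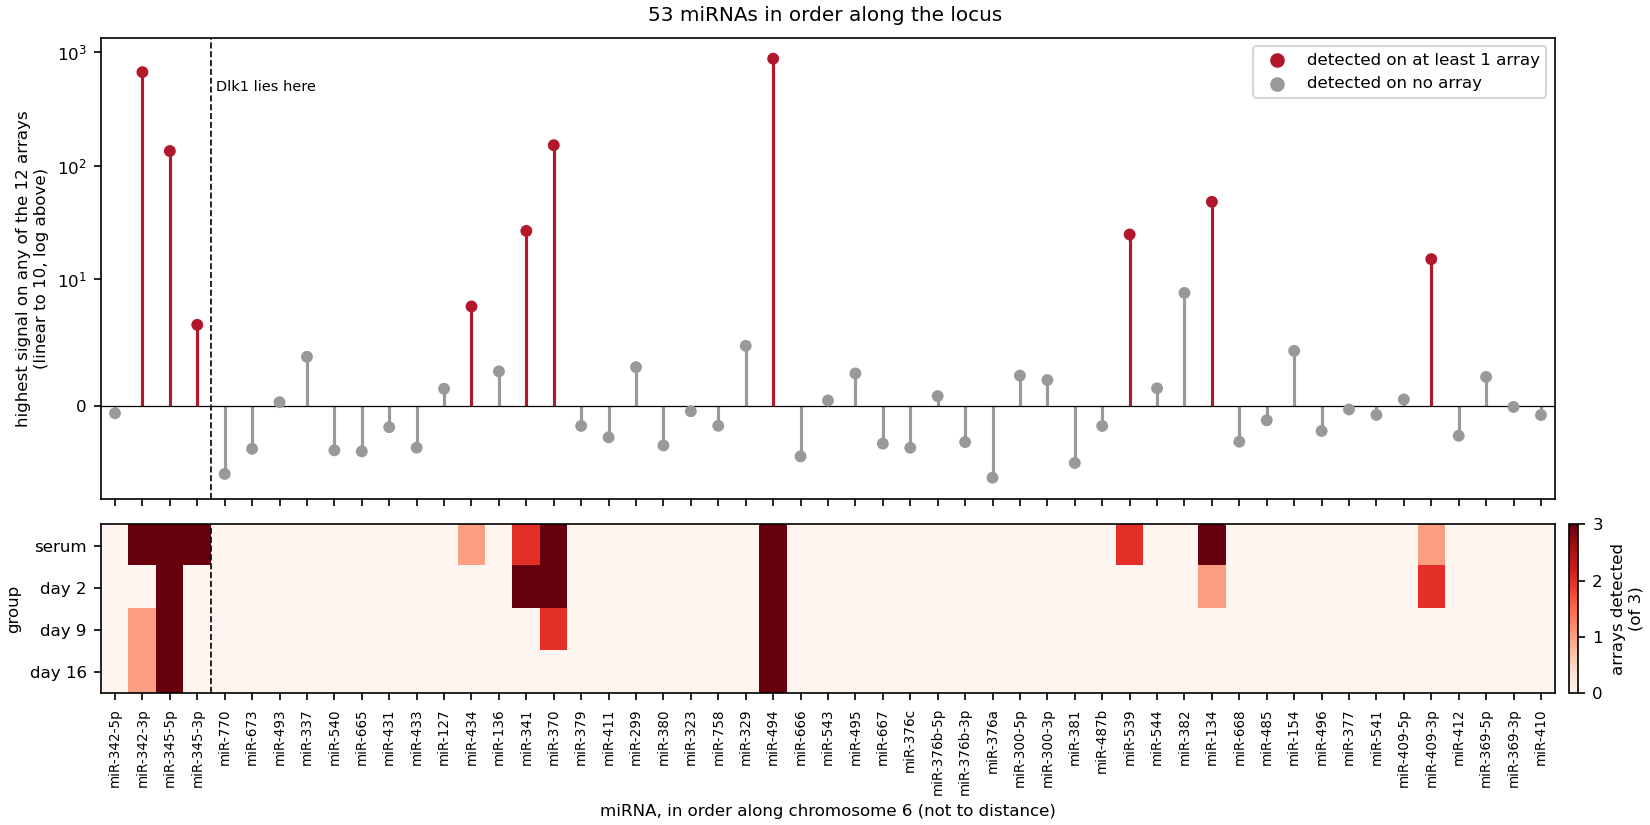
The 53 miRNAs in their order along chromosome 6 (not to distance); the dashed line marks where Dlk1 lies. The upper plot gives each miRNA's highest total signal on any of the 12 arrays (arbitrary units, linear to 10 and logarithmic above; heights of different miRNAs are not comparable, since their probes differ), red where it was detected on at least 1 array and grey where on none; the lower plot gives on how many of 3 arrays it was detected in serum and in day 2, 9 and 16 whey. Detected miRNAs are 10 of 53, of which 3 lie before Dlk1 and 7 in 3 of the 4 stretches, and only miR-494 of the 49 cluster miRNAs was detected on every array.

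The 42 undetected cluster miRNAs had total signals between -8.94 and 8.93, with a median of -2.92 over all their values (signals are background-subtracted and can be below 0). Of these, 26 were at or below 0 on all 12 arrays, and 2, miR-329 and miR-154, were above 0 on all 12, at up to 4.73 and 4.34. The highest value, 8.93, was that of miR-382. None had at least 0.5 of its spots well above background on any array. All 6 miRNAs of the Meg3 stretch were among them (up to 3.86, miR-337), as were miR-431, miR-433, miR-127 and miR-136 (up to 2.71, miR-136). At these arrays' sensitivity the undetected miRNAs have only an upper bound: the dimmest signal of a miRNA with at least 0.5 of its 20 spots well above background was 11.9 to 23.9, depending on the array.

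The limits of the arrays bear on each result. The summed signal of an array was 89211 to 160603 in serum, against ranges in whey of 21620 to 25457 (day 2), 70020 to 106279 (day 9) and 76070 to 119402 (day 16). Signals were therefore compared after quantile normalization over the 12 arrays, a floor of 1 and conversion to log2, and limma tested the 188 miRNAs that any array detected, with Benjamini-Hochberg adjustment over them; a call is an adjusted p under 0.05. Only 10 of the 53 miRNAs entered it, 7 of them cluster miRNAs, and a miRNA that enters through the group where it is high had to differ, so their counts are a description. Without normalization the log2 differences of the 188 miRNAs moved up, miRNA by miRNA, by a median of 0.91 for day 9 and 1.14 for day 16 over day 2, 0.20 for day 16 over day 9, and 0.84 and 2.00 for serum over days 16 and 2, and differences without normalization are to be read against these shifts. One slide held the day 2 and day 9 arrays and the second slide the others, so in the comparisons that cross slides, slide and group cannot be told apart. Serum was taken only on day 21 and whey only on days 2, 9 and 16, so fluid and day of lactation cannot be told apart either. In bulk fluid, fewer carriers of a miRNA and less of it per carrier cannot be told apart.

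The labelled fluids carried most of their markers. The 7 miRNAs of the epithelial list (miR-200a, miR-200b, miR-200c, miR-141, miR-429, miR-205 and miR-203) summed to 182 to 587 in serum, against 1838 to 2554 in day 2, 5359 to 6957 in day 9 and 6058 to 11070 in day 16 whey. Within this list miR-203 went the other way. It was at 16.9 to 21.7 in serum, against 1.14 to 4.35, 5.55 to 9.02 and 6.07 to 12.9 in whey of days 2, 9 and 16. The liver miRNA miR-122 was at 1416 to 2033 in serum, and was detected in no whey sample, with signals of at most 5.57. The erythrocyte miRNA miR-451 reached 27728 in serum, against at most 9.97 in whey, and the other erythrocyte miRNA, miR-144, was detected nowhere. The 4 leukocyte and platelet miRNAs (miR-223, miR-142-3p, miR-150 and miR-126) summed to 6760 to 9248 in serum, against 24.1 to 30.3 in day 2, 34.0 to 79.2 in day 9 and 28.0 to 612 in day 16 whey. Of the brain list, miR-124, miR-9 and miR-129 were detected in no sample and miR-128 in all. Signals of miR-128 were 980 to 2005 in serum, against 11.1 to 15.1, 24.4 to 42.5 and 24.2 to 47.5 in whey of days 2, 9 and 16. In the muscle list of 5, miR-208 was detected nowhere, miR-1 in serum only, and miR-206 in serum and on 2 day 16 whey arrays. miR-133b was detected on all serum arrays and on 8 of 9 whey arrays. miR-133a was at 2.41 to 9.77 in serum, 6.09 to 8.31 in day 2, 1.13 to 3.09 in day 9 and 1.45 to 4.05 in day 16 whey, and was detected on 2 serum arrays, all 3 day 2 arrays and none of days 9 and 16. The part of these sources in the results below was not tested.

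Day 2 whey stood apart from the later whey days in 5 cluster miRNAs: miR-494, miR-370, miR-341, miR-134 and miR-409-3p were all lower on day 9, and none was higher. Of the 10 miRNAs tested, 6 passed in day 9 against day 2, 5 lower and 1 higher, where 45.2% of all 188 miRNAs passed (28.2% higher and 17% lower). The 1 that was higher was miR-342-3p, which lies before Dlk1. In day 16 against day 2, 7 of the 10 passed, 5 lower and 2 higher, where 55.3% of all passed (32.4% higher and 22.9% lower). The median log2 difference of the 7 cluster miRNAs tested was -2.58 on day 9 and -2.37 on day 16, beside 0.08 and 0.13 over all 188 miRNAs. These medians are a description only. Within whey, miR-341, miR-134 and miR-409-3p were detected on day 2 alone, and some differences were set by the floor. The comparisons of days 9 and 16 share the day 2 arrays, and only the first lies within a slide. In day 16 against day 9, none of the 10 passed in limma (2 at an unadjusted p under 0.05: miR-345-5p and miR-539), where 7.45% of all miRNAs passed (4.26% higher and 3.19% lower).

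**Figure D2:**
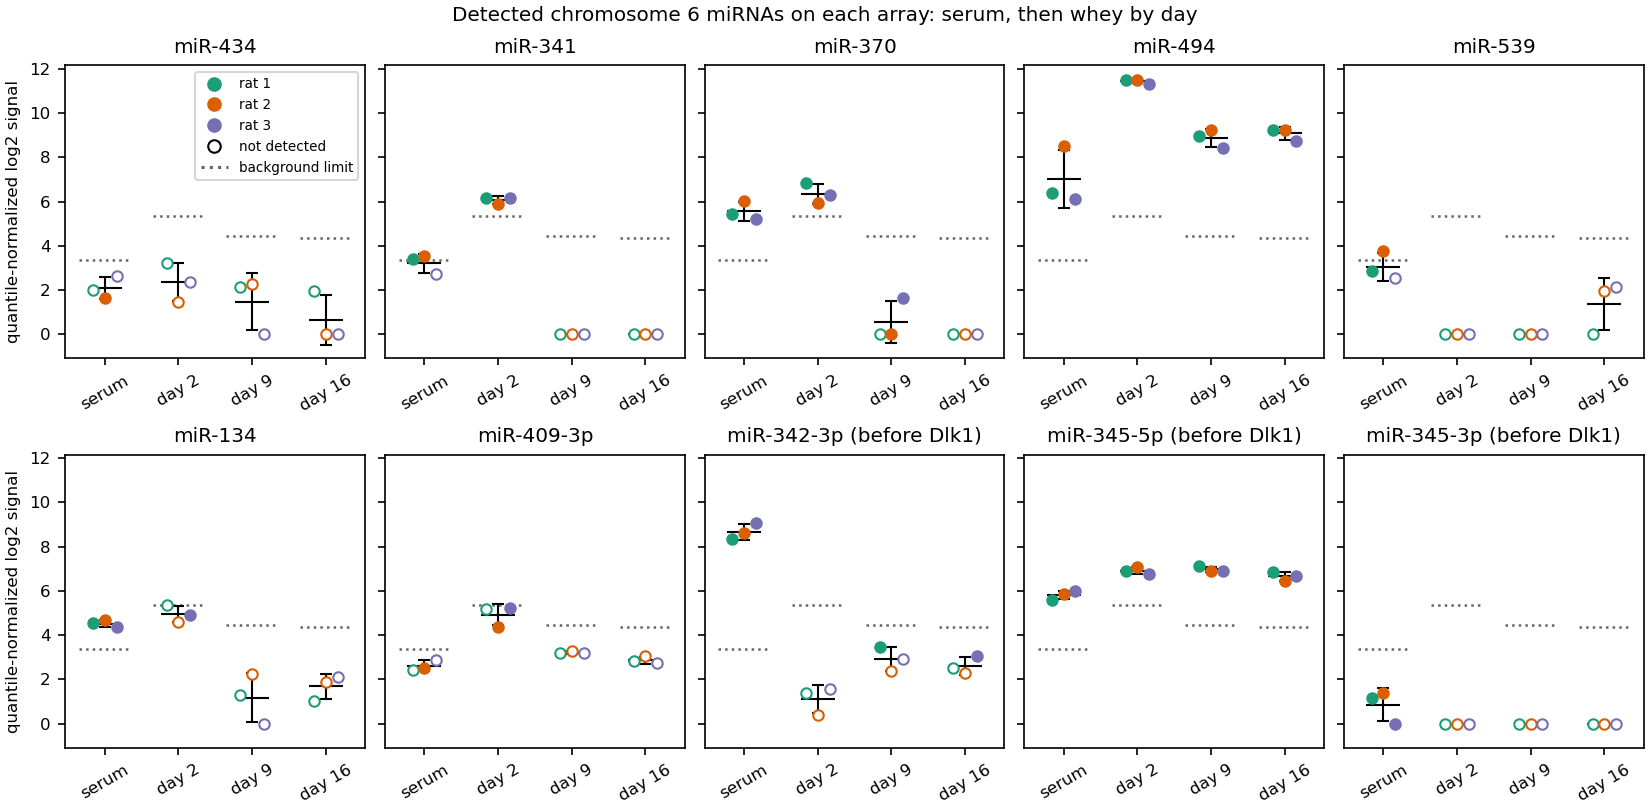
Quantile-normalized log2 signal of the 10 detected miRNAs in serum and in day 2, 9 and 16 whey. Each point is 1 array, coloured by rat and filled where the miRNA was detected; bars are the mean ± SD of 3 rats, and dotted lines the mean background limit of the group. miR-341 and miR-370 stand above the limit in day 2 whey and lie at or near the floor of 0 on days 9 and 16, while miR-345-5p is above the limit in every group.

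miR-341, which is known from mouse and rat, was found in colostrum and was lost to background afterwards. Its total signal was 25.6, 23.2 and 26.7 in day 2 whey of rats 1 to 3, then -2.03, -2.90 and -0.12 on day 9 and -2.11, 0.02 and -1.01 on day 16. All 3 day 2 arrays lay above all 6 arrays of the later days. On day 2, 15 to 18 of its 20 spots were well above background, against at most 1 on any array of days 9 and 16. Its 2 probes gave alike signals on day 2, with means of 12.5 ± 0.99 and 12.7 ± 0.84 (SD, n = 3), so the signal did not rest on 1 probe. On the normalized scale it was at least 3.08-fold lower on day 9 (log2 difference -6.08 ± 0.19, SE; limma adjusted p = 6.1e-09) and at least 3.31-fold lower on day 16 (-6.08 ± 0.19; adjusted p = 6.1e-09). The differences themselves were set by the floor. Arrays at the floor have no spread and lower the spread shared by all groups. The SE and adjusted p therefore do not measure the spread between rats, here or wherever a group lay at the floor. "At least" means that on each array of the dim group the miRNA was given the higher of its own signal and that array's background limit, the lowest normalized signal of a miRNA with at least 0.5 of its spots well above background.

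miR-370, which has been tied to lipid metabolism in liver, followed the same course. It was at 39.6, 24.2 and 32.3 in day 2 whey, -4.32, -1.41 and 1.76 on day 9 and -2.59, -2.59 and -2.68 on day 16. The software called it detected on 2 of the day 9 arrays, 1 of which had a signal below 0. It was at least 3.72-fold lower on day 9 (-5.81 ± 0.44; limma adjusted p = 3.1e-06) and at least 4.00-fold lower on day 16 (-6.36 ± 0.44; adjusted p = 1.6e-06). All 4 of its probes had means above 0 on day 2 (5.6 to 11.4), while on day 9 a single probe (4.33 ± 2.90) was above 0 and the other 3 were at -2.17 to -1.67. The later days did not overlap with day 2 in any rat.

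**Figure D3:**
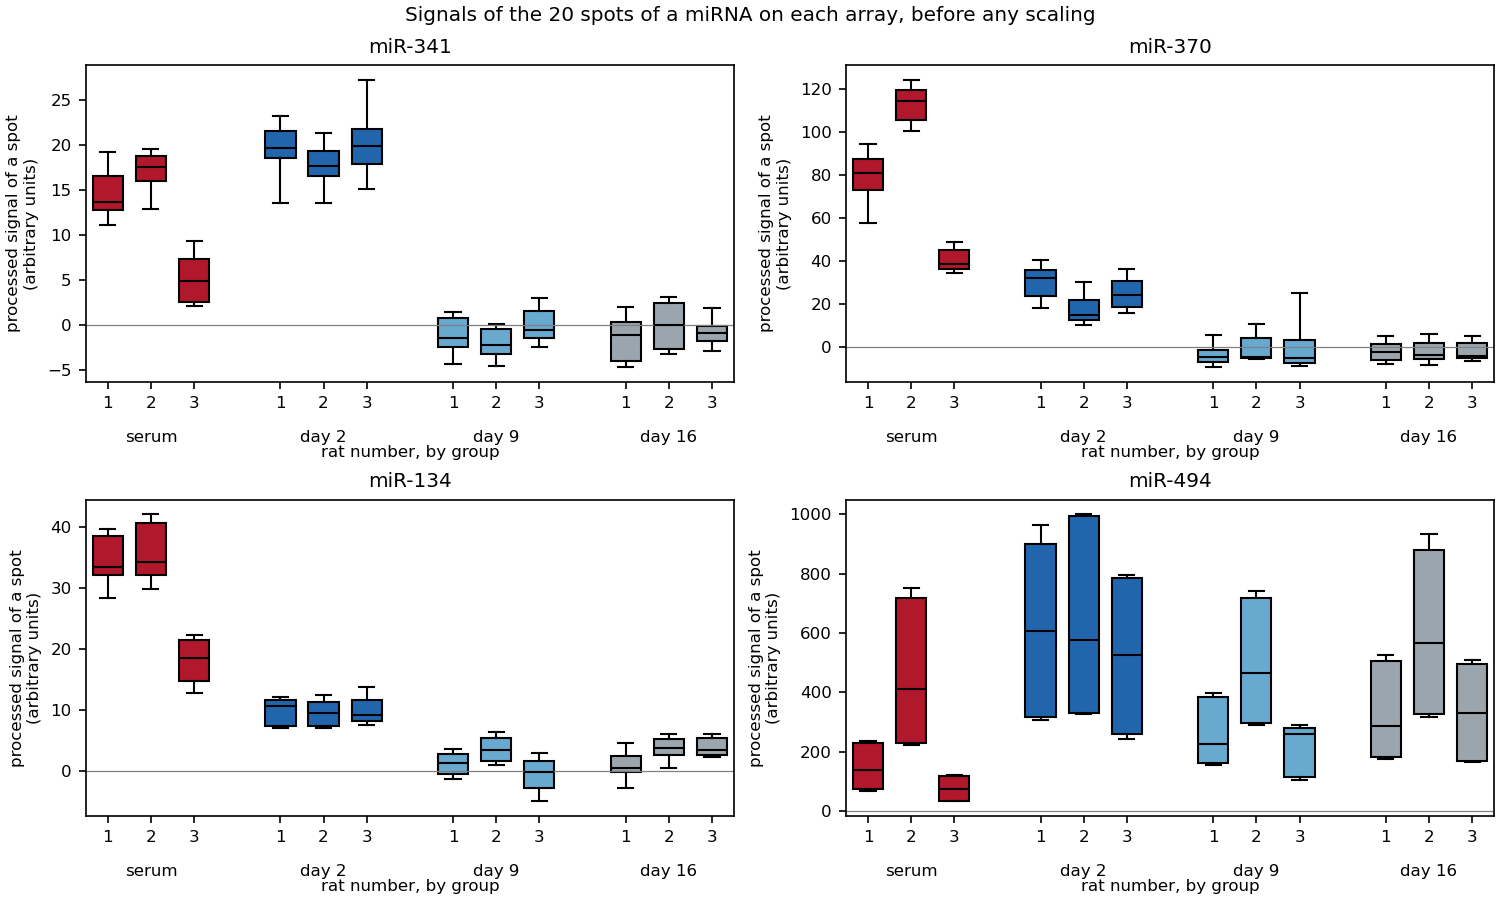
Processed signal of the 20 spots of miR-341, miR-370, miR-134 and miR-494 on each array (arbitrary units, before any scaling; axes differ between miRNAs), for rats 1 to 3 in serum and in day 2, 9 and 16 whey. Boxes span the quartiles with the median as a line, and whiskers reach the 10th and 90th percentiles. The boxes of miR-341 and miR-370 lie above 0 in day 2 whey and around 0 on days 9 and 16. In miR-494 rat 2 has the highest median of its group in serum, day 9 and day 16, and rat 1 on day 2.

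miR-494 was the cluster miRNA detected on all 12 arrays, with all 20 spots well above background on each. Its signal was 820, 879 and 694 in day 2 whey, 366, 688 and 260 on day 9 and 465, 802 and 444 on day 16. It was 5.98-fold lower on day 9 (-2.58 ± 0.54; limma adjusted p = 0.0028) and 5.18-fold lower on day 16 (-2.37 ± 0.54; adjusted p = 0.0042), in 3 of 3 rats on both days. Without normalization the direction stayed and the call was lost: -0.98 ± 0.60 (adjusted p = 0.198) on day 9 and -0.53 ± 0.60 (adjusted p = 0.488) on day 16, where the median shift over all miRNAs was 0.91 and 1.14. Rat 2 gave the highest signal in all 4 groups, serum included (201, 645 and 99.6 in rats 1 to 3). The summed signal of rat 2's array was the highest of its group on days 9 and 16, but not in serum or on day 2.

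miR-134 restrains the growth of dendritic spines in rat neurons. In day 2 whey it was at 12.8, 12.7 and 13.4, and was called on 1 of the 3 arrays; it was at 1.63, 4.82 and -0.89 on day 9 and 1.32, 5.03 and 4.92 on day 16, undetected on both. It passed as lower on day 9 (-3.78 ± 0.50; limma adjusted p = 0.00019) and day 16 (-3.27 ± 0.50; adjusted p = 0.00041). No fold is given, since on no whey array were at least 0.5 of its spots well above background.

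miR-409-3p lay in the same dim range, at 12, 11.9 and 15.1 on day 2, 6.38, 9.26 and 8.19 on day 9 and 4.30, 10.4 and 7.70 on day 16. It passed as lower on day 9 (-1.70 ± 0.22; limma adjusted p = 0.00016) and day 16 (-2.05 ± 0.22; adjusted p = 3.8e-05), with no overlap between day 2 and either later day, and again no fold can be given. Without normalization the day 9 call was lost (-0.72 ± 0.31, adjusted p = 0.074).

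The other cluster miRNAs tested were near background in whey. miR-539 was at -0.98, 0.28 and -1.40 on day 2, -0.32, -0.06 and -0.32 on day 9 and -0.44, 5.28 and 5.01 on day 16, and was called detected on none of these arrays. It passed as higher in day 16 against day 2 (1.38 ± 0.51; limma adjusted p = 0.046), a call that was lost on leaving out any of 10 of the 12 arrays (adjusted p = 0.0536 to 0.176). The call was also lost in several other settings. Among them were no normalization (1.58, adjusted p = 0.052), no filter on low values (adjusted p = 0.109) and normexp background correction (0.052, adjusted p = 0.28). With a floor of 5 the difference was 0.0. In day 16 against day 9 miR-539 passed only without rat 1's day 16 array (2.11; adjusted p = 0.014). miR-434 was at 3.77, 1.72 and 2.45 on day 2, 3.26, 5.00 and -0.84 on day 9 and 2.23, 0.30 and 1.02 on day 16, with log2 differences of -0.88 ± 0.75 (limma adjusted p = 0.40) on day 9 and -1.70 ± 0.75 (adjusted p = 0.086) on day 16 against day 2. The second passed without rat 3's day 9 array (adjusted p = 0.041) or rat 1's day 16 array (adjusted p = 0.023), and as lower under both 75th-percentile scalings (-1.98, adjusted p = 0.017, over miRNAs detected on all arrays and -1.81, adjusted p = 0.040, over all miRNAs).

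The miRNAs before Dlk1 took another course in whey. miR-345-5p was detected on every array, at 39.8, 47.8 and 41.6 on day 2, 78.9, 113 and 92.8 on day 9 and 71.2, 117 and 86.2 on day 16. After normalization its difference was 0.06 ± 0.14 on day 9 (limma adjusted p = 0.82) and -0.27 ± 0.14 on day 16 (adjusted p = 0.15). Without normalization it was higher on both days (1.13, adjusted p = 0.0034, and 1.06, adjusted p = 0.0044), beside medians of 1.13 and 1.28 over all 188 miRNAs. That rise came from 1 of its 2 probes, with mean signals of 31.6, 84.7 and 81.2 on days 2, 9 and 16. The other probe was at 11.4, 10.2 and 10.3. miR-342-3p, a miRNA of leukocytes, was at 1.08, 0.54 and 1.22 on day 2, 7.56, 5.68 and 6.32 on day 9 and 3.81, 6.75 and 8.33 on day 16. It passed as higher on day 9 (1.81 ± 0.38; limma adjusted p = 0.0028) and on day 16 (1.51 ± 0.38; adjusted p = 0.0074), while no whey array had at least 0.5 of its spots well above background. Both calls were lost with a floor of 5 (0.60, adjusted p = 0.141, and 0.30, adjusted p = 0.47) and with normexp background correction (0.081, adjusted p = 0.71, and 0.057, adjusted p = 0.78). In whey only 1 of the 2 probes of miR-342-3p rose above background values, with means of 1.49, 6.81 and 6.39 on days 2, 9 and 16. Its other probe was at -0.54, -0.29 and -0.10. miR-345-3p was below 0 on all 9 whey arrays (-10.4 to -6.84), and miR-342-5p, the fourth of them, was detected in no sample (-5.32 to -0.61).

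In serum against day 16 whey, on the same slide, 4 cluster miRNAs (miR-370, miR-341, miR-134 and miR-539) were higher and miR-494 was lower. Of the 10 tested, 8 passed, 6 higher and 2 lower, where 75% of all 188 miRNAs passed (36.2% higher and 38.8% lower). The remaining calls were miR-342-3p and miR-345-3p (higher) and miR-345-5p (lower). Against day 2 whey, on the other slide, 7 passed, 3 higher and 4 lower, where 83% of all passed (39.9% higher and 43.1% lower). The median difference of the 7 cluster miRNAs was 1.69 against day 16 and -0.79 against day 2, beside 0.11 and -0.19 over all 188 miRNAs. These medians too are a description only, since all 7 were detected in serum. Both comparisons use the same 3 serum arrays.

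miR-370 was at 108, 152 and 53.2 in serum, detected with all 20 spots well above background on each array, and its 4 probes had means of 22.9 to 29.6. It was at least 2.31-fold higher than in day 16 whey (5.57 ± 0.44; limma adjusted p = 1.0e-06). Against day 2 whey the difference depended on the scaling. It was -0.79 ± 0.44 after normalization (adjusted p = 0.117), with serum and day 2 overlapping, and 1.61 ± 0.38 without normalization (adjusted p = 0.0029), where the median shift over all miRNAs was 2.00. The normalized difference was called without rat 3's day 9 array (-0.79, adjusted p = 0.019), with a floor of 5 (-0.79, adjusted p = 0.016) and with normexp background correction (-0.37, adjusted p = 0.021).

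miR-134 was at 46.2, 48.2 and 24.3 in serum and detected on all 3 arrays. It lay at least 1.12-fold above day 16 whey (2.84 ± 0.50; limma adjusted p = 0.00048), in 3 of 3 rats. Against day 2 whey it too turned with the scaling: the difference was -0.44 ± 0.50 with normalization (adjusted p = 0.43) and 1.54 ± 0.63 without (adjusted p = 0.046), where the median shift over all miRNAs was 2.00.

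miR-341 was at 19.5, 22.7 and 6.63 in serum, detected in rats 1 and 2, but only rat 2's array had at least 0.5 of its spots well above background. It passed as higher than in day 16 whey (3.23 ± 0.19; limma adjusted p = 1.1e-07), although the group means lay too near the background limit for a fold. It passed as lower than in day 2 whey (-2.86 ± 0.19; adjusted p = 3.25e-07), with no fold given because the serum mean lay below the background limit, and the call was lost without normalization (-0.81 ± 0.38, adjusted p = 0.076).

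miR-494 was lower in serum than in day 16 whey by 4.19-fold (-2.07 ± 0.54; limma adjusted p = 0.0056) and than in day 2 whey by 21.7-fold (-4.44 ± 0.54; adjusted p = 3.0e-05), in 3 of 3 rats. Rat 2's serum array stood apart, at 8.53 on the normalized log2 scale beside 6.40 and 6.12 in rats 1 and 3, and both of its probes spread widely in serum (240 ± 220 and 75.03 ± 70.02, SD, n = 3). Without that array the differences were -2.87 (adjusted p = 7.5e-06) and -5.22 (adjusted p = 1.6e-07). Without normalization the difference from day 16 was not called (-1.23 ± 0.60, adjusted p = 0.092), and that from day 2 was (-1.76 ± 0.60, adjusted p = 0.023).

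**Figure D4:**
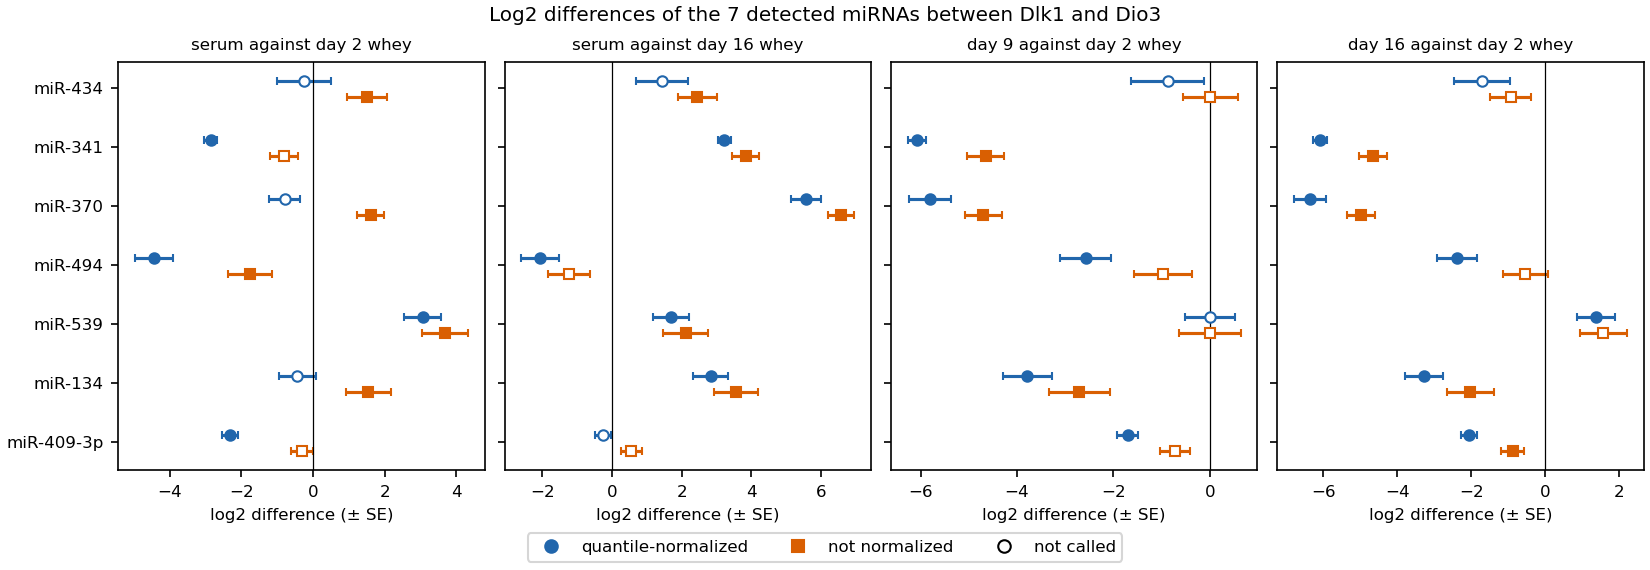
Log2 differences (± SE) of the 7 detected cluster miRNAs for serum against day 2 and day 16 whey and for day 9 and day 16 against day 2 whey, with quantile normalization (circles) and without normalization between arrays (squares); filled symbols passed at a limma adjusted p under 0.05. miR-341 and miR-370 lie left of 0 under both scalings in the 2 comparisons with day 2 whey among whey days, while the scalings lie on opposite sides of 0 for miR-434, miR-370 and miR-134 in serum against day 2 whey, for miR-409-3p in serum against day 16 whey and, close to 0, for miR-434 in day 9 against day 2 whey.

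miR-539 was at 14.5, 24.9 and 5.95 in serum and was detected there on 2 arrays, the only samples in which it was. It passed as higher than in day 16 whey (1.69 ± 0.51; limma adjusted p = 0.013), a call lost under several alternative settings (adjusted p = 0.0537 to 0.108), and than in day 2 whey (3.06 ± 0.51; adjusted p = 0.00032); neither allows a fold. miR-434 was at 7.85, 7.28 and 6.41 in serum, called on 1 array, and its serum signal came from 1 of its 2 probes (7.08 ± 0.77, beside 0.10 ± 0.29). Its differences of 1.44 ± 0.75 from day 16 (adjusted p = 0.11) and -0.26 ± 0.75 from day 2 (adjusted p = 0.76) were not called. The first was called without rat 1's day 16 array (2.15; adjusted p = 0.026), without normalization (2.44; adjusted p = 0.0026) and under scaling by the 75th percentile of miRNAs that every array detected (1.74; adjusted p = 0.021). The second turned without normalization and was then called (1.51; adjusted p = 0.032). miR-409-3p, at 10.7, 11.6 and 8.87 in serum and called on 1 array, was lower than in day 2 whey (-2.31 ± 0.22; adjusted p = 5.1e-06), with no call without normalization (-0.32 ± 0.31, adjusted p = 0.39), and its difference from day 16 whey was -0.26 ± 0.22 (adjusted p = 0.32) with normalization and 0.56 without (adjusted p = 0.127).

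Among the miRNAs before Dlk1, miR-342-3p differed most plainly between day 21 serum and whey of the earlier days. It was at 636, 669 and 648 in serum, with every spot well above background, and no whey array exceeded 8.33. It lay at least 19.8-fold above day 16 whey (6.05 ± 0.38; limma adjusted p = 2.0e-07) and at least 9.80-fold above day 2 whey (7.56 ± 0.38; adjusted p = 4.8e-08). The summed leukocyte and platelet list was also higher in serum, as given above. Its member miR-142-3p, though, overlapped between serum (13.7 to 17.5) and day 16 whey (4.04 to 22.5). The part of leukocytes was not tested. miR-345-5p was at 127, 135 and 87.0 in serum and was 1.79-fold lower than in day 16 whey (-0.84 ± 0.14; adjusted p = 0.00032) and 2.15-fold lower than in day 2 whey (-1.11 ± 0.14; adjusted p = 4.4e-05). Both directions turned without normalization (0.35, adjusted p = 0.23, and 1.41, adjusted p = 0.00046), and scaling by the 75th percentile of miRNAs that every array detected left -0.05 against day 16 (adjusted p = 0.72). The 2 probes of miR-345-5p had mean signals of 13.6 and 103 in serum. miR-345-3p was called detected on all 3 serum arrays at 5.13, 6.40 and -0.94, and passed as higher than in day 16 and day 2 whey (0.85 ± 0.29 in both; adjusted p = 0.022 and 0.021). The call against day 16 was lost without rat 1's or rat 2's serum array or rat 3's day 16 array (adjusted p = 0.0517 to 0.085), and that against day 2 without rat 1's or rat 2's serum array (adjusted p = 0.0752 and 0.0789). Both were also lost in limma with no filter on low values (adjusted p = 0.056 and 0.0505) and with only the compared arrays (0.098 and 0.091). With a floor of 5 both differences were 0.0. All whey values lay at the floor, and neither fluid was well above background.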

How the data were processed

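Total RNA was labelled with 1 dye and hybridized to Agilent rat miRNA arrays. The authors extracted the arrays with Agilent Feature Extraction 9.5.3.1, per the submitters' notes and the file headers. The deposited intensity per spot, per probe and per miRNA is background-subtracted and not normalized between arrays, and the deposited detection flags are those of the software. The deposited series value table, whose 8475 spots were within 1% of the scanner intensity on every array, served as an alternative. A deposited quantile-normalized log2 table of the authors was not used, because its 12 columns name no sample.

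Total intensity per miRNA was quantile normalized across the 12 arrays, floored at 1 and put on the log2 scale. A mean for each of 4 groups was fitted with limma 3.58.1 (R 4.3.3) for the 188 miRNAs that any array detected, with 1 shared spread, two-sided tests and Benjamini-Hochberg adjustment. The methods' own rule of detection, 1 of 3 samples, was kept. The fit was tested on simulated data for day 9 against day 2. Those data had no floor and no normalization step, so they do not cover groups at the floor. Tables and figures were made in Python 3.11.15 with pandas 2.3.3 and matplotlib 3.10.9. The number of arrays limits the precision.

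Every miRNA inside the bounds was named, with array values for those detected. The miRNAs, marker lists and tests were chosen with earlier results of these data known. Samples are paired by rat, since the numbers in the titles name the animals. Deviations of 2 samples from their group means correlated across miRNAs with a median of 0.04 within rats (18 pairs) and -0.03 between rats (36 pairs). No 2 of the 12 arrays were identical. Alternatives were other scalings, floors, filters and tests, the rat as a block, and leaving out each array. Genome positions are the rn4 probe positions of the files; GRCr8 served for names, order and sequences.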

Additional observations from a re-analysis of the deposited data

How the results depend on the processing

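Over 13 alternative settings, the count of miRNAs passing was 5 to 6 for day 9 against day 2 (6 as reported), 5 to 7 for day 16 against day 2 (7) and 0 for day 16 against day 9 (0). It was 6 to 8 for serum against day 16 (8) and 5 to 9 for serum against day 2 (7). The 9 came with no filter on low values, where all 53 miRNAs were tested and some that no array detected passed. Leaving out each array in turn gave 6 to 6, 6 to 8, 0 to 1, 7 to 9 and 6 to 8, the 1 being miR-539 without rat 1's day 16 array. Detection on all 3 arrays of a group cut the count in whey to 4 of the 7 and in serum to 6 of the 10, and asking for 0.5 of the spots well above background on 1 array cut whey to 4. Without single arrays the counts were 6 to 7 in whey and 8 to 10 in serum.

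With the rat as a replicate block the fit kept each of these calls: 0 of 50 changed, and counts stayed at 6, 7, 0, 8 and 7. Without normalization, miR-345-5p turned to 1.06 in day 16 against day 2, 0.35 in serum against day 16 and 1.41 in serum against day 2, miR-370 to 1.61, miR-134 to 1.54 and miR-434 to 1.51 in serum against day 2, miR-409-3p to 0.56 in serum against day 16, and miR-434 to 0.012 in day 9 against day 2. Under 75th-percentile scaling over miRNAs detected on all arrays miR-409-3p turned to 0.15 in serum against day 16. With the summed series value table it was at 0.0023 there, and miR-434 turned to 0.037 in serum against day 2 and 0.19 in day 16 against day 9. The small difference of miR-345-5p in day 9 against day 2 turned to -0.075 under 75th-percentile scaling over miRNAs detected on all arrays, to -0.0099 without rat 3's day 2 array and to -0.0047 without rat 1's day 9 array (-0.0099 to 0.13 over all arrays left out); that of miR-494 in day 16 against day 9 turned to -0.017 without rat 3's day 9 array (-0.017 to 0.41), as did that of miR-134 to -0.069 (-0.069 to 1.04). miR-434 in serum against day 2 turned to 0.17 without rat 1's day 2 array (-0.70 to 0.17). The causes were not tested. Of 1230 values of 50 differences, 1145 kept direction and call, 54 lost the call, 13 gained it and 18 turned. The 1145 include values of differences that were 0.0 because both groups lay at the floor, with no direction to keep. These were miR-345-3p among whey days, miR-539 in day 9 against day 2 and miR-341 in day 16 against day 9. miR-134 lost its calls with the summed series value table in day 16 against day 2 (adjusted p = 0.083) and in serum against day 16 (adjusted p = 0.071), and gained one in serum against day 2 with a floor of 5 (adjusted p = 0.032). Over all 188 miRNAs the split of calls, higher and lower, was 53 and 32 in day 9 against day 2, and 93 and 12 without normalization; for serum against day 2 it was 75 and 81, and 117 and 25. Low signal limits miR-134, miR-409-3p, miR-434, miR-539, miR-345-3p and, in whey, miR-342-3p, which were near background in most groups.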

Other observations

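The 6 passenger strands inside the bounds (miR-136*, miR-379*, miR-323*, miR-543*, miR-376a* and miR-382*) were detected on no array, with signals from -7.83 to 2.11. The first miRNA beyond the upper bound, miR-203 at 136932145 to 136932161 on chromosome 6 of rn4, had 16.9 to 21.7 in serum, against 1.14 to 4.35 in day 2, 5.55 to 9.02 in day 9 and 6.07 to 12.9 in day 16 whey, and was detected on 7 of 12 arrays. The last miRNA inside that bound, miR-410, was below 0 on every array. No other miRNA of the array lay on chromosome 6 below miR-342-5p.

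Outside the chosen bounds, 178 of 335 miRNAs (53.1%) were detected on at least 1 array, beside 7 of the 49 cluster miRNAs. With no filter on low values, all 49 cluster miRNAs were tested among 388. Of these, 5 passed in day 9 against day 2 (20.4% of all passed), 6 in day 16 against day 2 (26.0%) and 0 in day 16 against day 9 (2.84%). In serum, 5 passed against day 16 (36.3%) and 7 against day 2 (40.7%). In day 16 against day 2 and in serum against day 2, the counts include cluster miRNAs that no array detected, with only an upper bound. miR-539 lost its day 16 against day 2 call here (limma adjusted p = 0.109).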
